A study of Mus musculus with 4 samples.

Results

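Cells detect foreign or misplaced nucleic acid in the cytosol with a small group of proteins, and 5 mouse genes that encode such sensors are described here. Ddx58 encodes RIG-I and Ifih1 encodes MDA5, RNA helicases that bind viral RNA and signal through the mitochondrial adaptor MAVS. Dhx58 encodes LGP2, a related helicase without signalling domains that modulates the other two. Eif2ak2 encodes PKR, a kinase that binds double-stranded RNA and then halts translation by phosphorylating the initiation factor eIF2-alpha. Zbp1 encodes a protein that binds Z-form nucleic acid and can trigger inflammation and cell death. All 5 genes are known as interferon-stimulated genes: secreted type I interferon activates the ISGF3 transcription factor, which binds interferon-stimulated response elements near their start sites.

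The members were taken by position: every row of the deposited table with a transcript ID whose locus overlaps the mm9 window of 1 of the 5 genes. This gave 6 of the 17576 loci, 1 for each gene and a further 1 in the Dhx58 window. The gene names rest on these positions, since none of the 38980 transcript IDs in the table matched the symbol tables used here. Each locus covered 100.0% of its window. The spans of the Ddx58 locus and of the RefSeq gene (GRCm38.p6) were both 36049 bp. The Eif2ak2 locus differed from its RefSeq gene by 1 bp (32068 against 32069 bp), and the Zbp1 locus measured 12310 against 12348 bp. The Ifih1 locus was longer than its RefSeq gene, at 54312 against 50638 bp, and the Dhx58 locus exceeded its gene by more, at 16895 against 9388 bp. The window of Dhx58 took up 41.4% of the locus span, so the fragments of other transcripts may be counted at this locus.

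The cells were mouse embryonic fibroblasts (MEFs) of the C57BL/6 strain with the genotype H3.3-HA knock-in: an H3.3-HA cDNA, coding for tagged histone H3.3, takes the place of the H3f3b locus. Every group shares this genotype. Naive and Pretreated cells were each studied at 0 h, with no dose of interferon-beta (IFN-beta) listed, and after 1 h of IFN-beta at 100 U/ml. This gave 4 groups of 1 library each. The naive 1 h and pretreated 1 h libraries were compared, which asks how pretreated and naive cells differ when both have just met interferon. Since the libraries at 0 h were not analysed here, the values do not separate a level that was already high before the 1 h stimulus from a larger response to it. The labels do not say what the pretreatment consisted of, how long it lasted or how long before the stimulus it ended, nor whether the cells came from 1 embryo or clone or from several. The fibroblast identity was not checked against marker genes, since the table gives no symbols. The series title names RNA-seq and each sample description scTSS-seq; the deposited FPKM values were read as RNA-seq.

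As each group is 1 library, the values below carry no replicate error, and differences were not tested across samples. FPKM scales the fragments of a transcript by its length and by the mapped total. Levels are set side by side between genes on the reading of the values as RNA-seq. If the libraries were scTSS-seq, the scaling by length may not hold. The orders, shares and ratios between genes below carry this limit. The total count per library is unknown. A relative depth was estimated from loci listed at 0 in 1 library, taking their deposited p-values to mark a few reads each. On that estimate the depth of the pretreated library was 0.492 of that of the naive library. It holds only if no rescaling between libraries entered the values. The lower values of all 5 genes lay in the naive library, and a part of depth in this was not tested. Changes are differences of log2(FPKM + 1), pretreated minus naive, over the 10228 loci with a mean of at least 1 FPKM. The median change of these loci was -0.16, so a gene at 0 on this scale was already above the typical locus. In bulk RNA, fewer cells expressing a gene and less RNA per cell cannot be told apart.

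A short stretch around the RefSeq start of each gene is shown first, because the response element bound by ISGF3 is the feature these genes are known to share. The core of that element, GAAA, any 2 bases and GAAA again, was searched on both strands in the windows of 250 bases before to 50 after each start (RefSeq, GRCm38.p6). Of the 5 members, 3 were in that promoter table (Ddx58, Ifih1 and Eif2ak2). Dhx58 and Zbp1 were not in it. Each of the 3 windows held 1 match, against 3.44% of all 32851 windows. The stretches run 5′ to 3′ on the strand of the gene, with the match in capitals.
Ddx58: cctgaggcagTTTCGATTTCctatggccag
Ifih1: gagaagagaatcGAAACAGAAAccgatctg
Eif2ak2: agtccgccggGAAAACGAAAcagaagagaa
The Ddx58 stretch is chr4:40239804-40239833 on the minus strand, and its match lies at positions 3 to 12 from the start, counted with the first transcribed base as 1. It reads GAAATCGAAA on the opposite strand. The Ifih1 stretch is chr2:62646206-62646235 on the minus strand, with the match at positions 33 to 42. The Eif2ak2 stretch is chr17:78882535-78882564 on the minus strand, with the match at positions 19 to 28. The 3 matches thus lay just downstream of the annotated starts, on either strand, and differed in the spacer bases between the GAAA repeats. A match is a description of letters and was not tested for binding. The changes of the 3 genes with a match were 0.48, 1.04 and 0.27 on the log2 scale described above. Dhx58 and Zbp1 could not be searched, so match and change cannot be compared over all 5 genes.

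All 5 genes had higher values in pretreated than in naive cells, with changes from 0.27 for Eif2ak2 to 3.60 for Zbp1. Over all loci compared, 37.2% were higher by any amount. Zbp1, Dhx58 and Ifih1 were at least 2-fold higher, 3 of the 5 loci that passed the filter, and 0 were at least 2-fold lower. Over all loci, 2.83% passed 2-fold on the higher side and 7.12% on the lower side. At 4-fold, Zbp1 alone passed, and 0.968% of all loci did so on the higher side. The median change of the 5 genes was 1.04, against -0.16 over all loci. The genes were chosen with earlier results of these data known, and no test of the group was made.

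**Figure D1:**
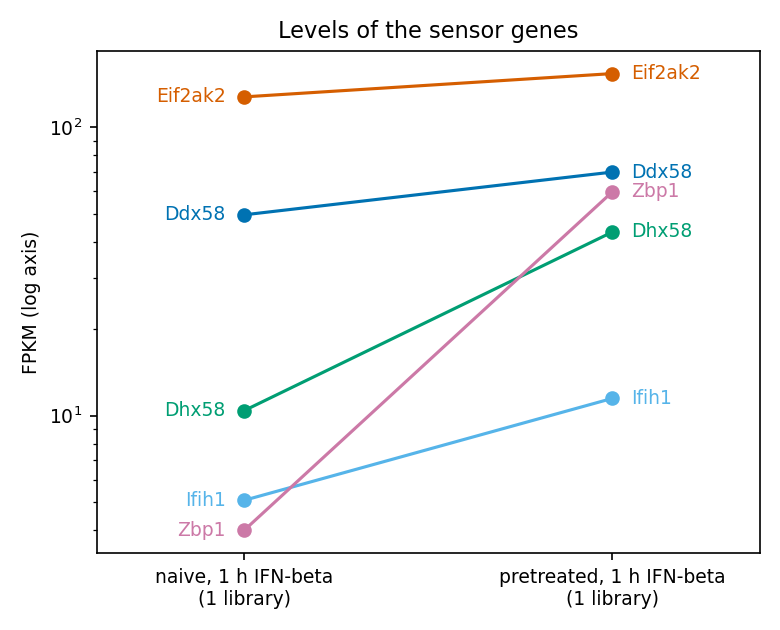
FPKM of the 5 sensor genes (log axis) in the naive and the pretreated library after 1 h of interferon-beta, 1 point per library, with lines joining the same gene. The line of Zbp1 climbs most steeply, from 4.0 to 59.8 FPKM, and crosses those of Ifih1 and Dhx58, while Eif2ak2 stays on top in both libraries.

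Among the RIG-I-like receptors, Ddx58 (XLOC_018440, 5 transcript IDs) lies on chromosome 4 from 40150810 to 40186858 in mm9. Its level was 49.7 FPKM in the naive library and 70.0 FPKM in the pretreated library. The change was 0.48, or 1.41-fold on the plain ratio. In the authors' deposited table, whose p-values set the reads of 1 library against those of another and do not test the conditions, Ddx58 had a q-value of 0.209 and was not called. RIG-I transcripts were thus already abundant in naive cells at 1 h: 13.4% of the loci compared stood above Ddx58 there, and 10.2% in pretreated cells.

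Ifih1 (XLOC_015313, 4 transcript IDs) lies on chromosome 2 from 62430001 to 62484312. It stood at 5.09 FPKM without pretreatment and at 11.5 FPKM with it. The change of 1.04 put it just past the 2-fold line, at 2.26-fold on the plain ratio. The authors' deposited table gives it a q-value of 1.69e-08 and a significant call. MDA5 transcripts remained far below those of RIG-I in both libraries.

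Dhx58 (XLOC_004665, 2 transcript IDs) lies on chromosome 11 from 100548731 to 100565625. Naive cells had 10.4 FPKM and pretreated cells 43.4 FPKM. The change was 1.96, a ratio of 4.16, and the authors' deposited table lists a q-value of 1.68e-12 with a significant call. The Dhx58 locus thus had the largest difference of the RIG-I-like receptor loci between these libraries. Fragments of other transcripts may be counted in it, as said above. A second locus in the same span, XLOC_003728 with 1 transcript ID, was at 0.040 FPKM in naive cells and 0.486 FPKM in pretreated ones. It was untested by the authors and did not pass the filter. Both values were far below those of the Dhx58 locus, and the table does not name its gene.

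Together the 3 RIG-I-like receptor genes summed to 65.2 FPKM in naive cells; the sum in pretreated cells was 124.8 FPKM, a ratio of 1.91. The make-up of this sum differed between the libraries. Ddx58 supplied 76.2% of it in naive and 56.1% in pretreated cells. The Dhx58 locus, in which other transcripts may be counted, supplied 15.96% and 34.7%, and Ifih1 supplied 7.80% and 9.20%. These shares, and the ratios that follow, are taken within a library and so do not depend on the scaling between libraries. There were 4.78 Ddx58 FPKM for each Dhx58 FPKM in naive cells and 1.61 in pretreated cells. The Ddx58 to Ifih1 ratio was 9.78 in naive and 6.09 in pretreated cells.

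**Figure D2:**
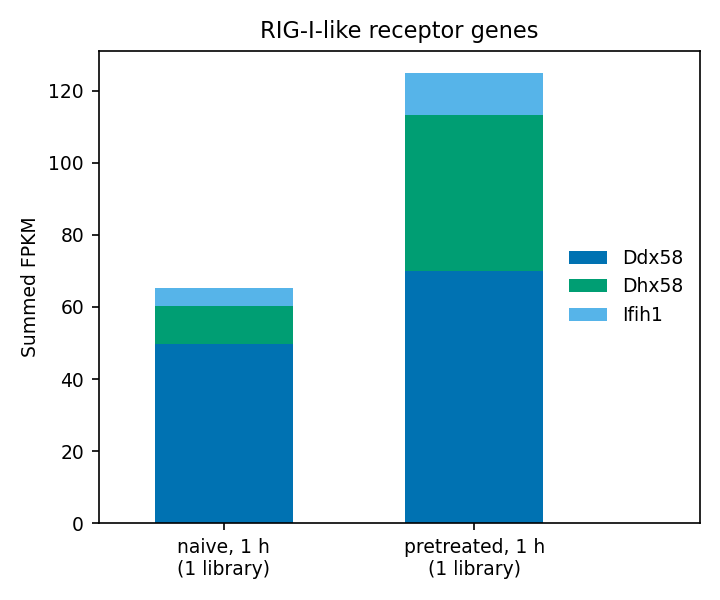
Summed FPKM of Ddx58, Dhx58 and Ifih1 in the naive and the pretreated library, 1 library per bar, with each coloured part showing 1 gene. The bars reach 65.2 FPKM (naive) and 124.8 FPKM (pretreated), and the Dhx58 part grows from 10.4 to 43.4 FPKM.

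The kinase gene Eif2ak2 (XLOC_011851, 2 transcript IDs) lies on chromosome 17 from 79249845 to 79281912. Its level was 127.6 FPKM in the naive library and 153.6 FPKM in the pretreated one. This was the smallest of the 5 changes, 0.27 or 1.2-fold, and the authors' deposited table gives a q-value of 0.693 with no call. Across all loci compared, 18.9% had a larger change. PKR transcripts were the most abundant of the 5 in both libraries, at 64.8% of the summed FPKM of the 5 genes in naive and 45.4% in pretreated cells.

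The Z-nucleic acid sensor gene Zbp1 (XLOC_016117, 2 transcript IDs) lies on chromosome 2 from 173032114 to 173044423. Naive cells were at 4.0 FPKM, the lowest of the 5 genes, and pretreated cells at 59.8 FPKM. The change was 3.60, or 14.9-fold on the plain ratio. The authors' deposited table calls it significant and lists its q-value as 0. Only 32 of the 10228 loci had a larger change, which places Zbp1 at rank 33, Dhx58 at rank 101, Ifih1 at rank 270, Ddx58 at rank 1023 and Eif2ak2 at rank 1930. In that authors' deposited table, 3 of the 5 genes carried a call on the higher side, where 3.91% of the 13388 tested loci did.

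**Figure D3:**
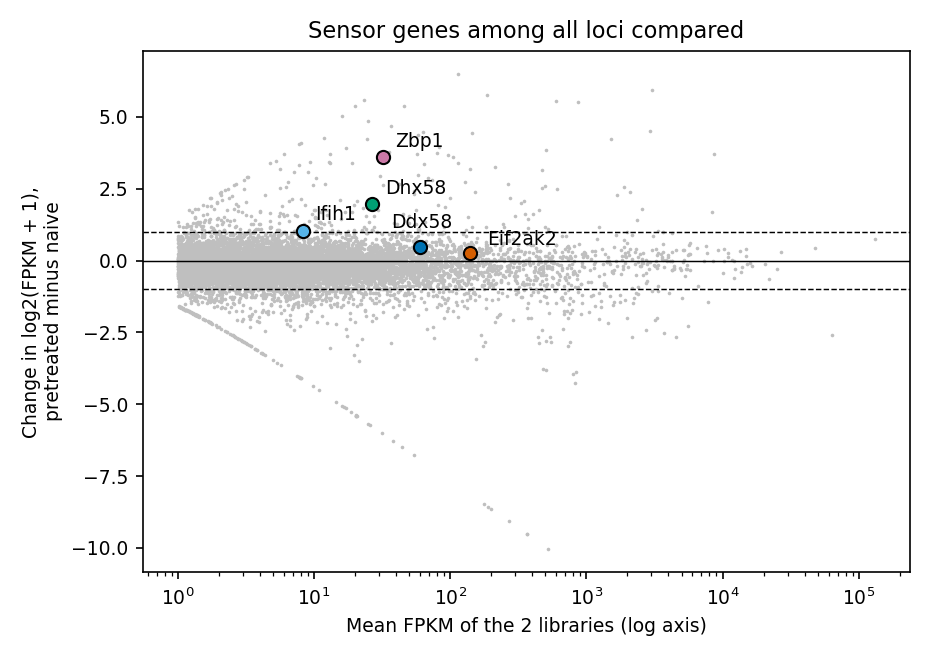
Change in log2(FPKM + 1), pretreated minus naive, against the mean FPKM of the 2 libraries (log axis) for the 10228 loci compared (grey) and the 5 sensor genes (coloured); dashed lines mark 2-fold. Zbp1 at 3.60 and Dhx58 at 1.96 lie above most grey points, Ifih1 at 1.04 just above the upper dashed line, and Ddx58 at 0.48 and Eif2ak2 at 0.27 between the dashed lines.

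The order of the 5 levels was not the same in the libraries. In naive cells Eif2ak2 led, followed by Ddx58, Dhx58, Ifih1 and Zbp1, with a 31.9-fold range from highest to lowest. In pretreated cells Eif2ak2 and Ddx58 still led, but Zbp1 took the third place, followed by Dhx58 and Ifih1, and the range was 13.4-fold. Some neighbours in these orders lay close: Ifih1 was 1.27 times Zbp1 in naive cells, and Ddx58 was 1.17 times Zbp1 in pretreated cells. Without replicates, the order of such pairs has no error to set it against. The ratio of Ddx58 to Zbp1 was 12.4 in naive cells, so these genes were far apart there and nearly level in pretreated cells. Ddx58 and Eif2ak2 kept nearly the same proportion, with 2.56 Eif2ak2 FPKM per Ddx58 FPKM in naive and 2.20 in pretreated cells.

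The 2 genes with the highest naive levels had the smallest changes. The naive level is itself subtracted in the change, so level and change are not independent. Ddx58 and Eif2ak2, at 49.7 and 127.6 FPKM, differed by less than 2-fold, whereas Zbp1, Ifih1 and Dhx58, at 4.0 to 10.4 FPKM, differed by more. Whether the naive level has a part in this was not tested. The shares past 2-fold by class of naive level follow for reference. These classes hold loci of every kind, not only interferon-stimulated genes. Of the 3147 loci with a transcript ID and a naive level from 4 to under 16 FPKM, 1.84% passed 2-fold on the higher side and 5.27% on the lower side, with a median change of -0.19. Of the 1690 such loci from 16 to under 64 FPKM, which include Ddx58, 1.66% were at least 2-fold higher. At 64 FPKM or more, where Eif2ak2 lies, 2.72% of 994 loci were.

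The loci nearest to the sensor genes differed less between the libraries than the sensor genes themselves. The nearest compared locus with a transcript ID was taken on each side of each gene, giving 10 loci at distances of 435 to 791568 bp. Each had a change smaller in size than that of its sensor gene, and 0 of the 10 passed 2-fold in either direction. Over all compared loci with a transcript ID, 2.41% passed 2-fold on the higher side and 4.24% on the lower side. A count of 0 among 10 is near these shares and does not set the neighbours apart from other loci. The authors' deposited table called 1 of the 10, a locus 791568 bp from Ifih1 that was lower in pretreated cells, with a q-value of 1.92e-05. Of the 13388 loci tested there, 3.91% were called higher and 11.9% lower. The changes of the 10 loci ran from -0.84 to 0.56 with a median of -0.07. Zbp1, at 3.60, lay between neighbours at -0.73 and -0.37. The neighbours of Ifih1 had -0.84 and 0.34, and those of Ddx58 had -0.02 and -0.41. Beside Eif2ak2 the values were 0.05 and -0.13. Both neighbours of Dhx58 were above 0, at 0.56 and 0.52, and the nearer one began 435 bp after the Dhx58 locus. That neighbour was at 2.14 FPKM (naive) and 3.50 FPKM (pretreated), well under the levels of Dhx58. Every compared locus with a transcript ID within 500 kb on each side was then counted. There were 25 loci around Dhx58, 10 around Eif2ak2, 7 around Ddx58, 7 around Zbp1 and 1 around Ifih1. Of these, 0 passed 2-fold, beside the shares of 2.41% and 4.24% over all such loci. On the higher side, a locus around Eif2ak2, at 0.39, exceeded its sensor gene, and 0 did around the other 4 genes. On the lower side, changes reached -0.71 around Ddx58 and -0.81 around Eif2ak2, larger in size than those of the sensor genes there.

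**Figure D4:**
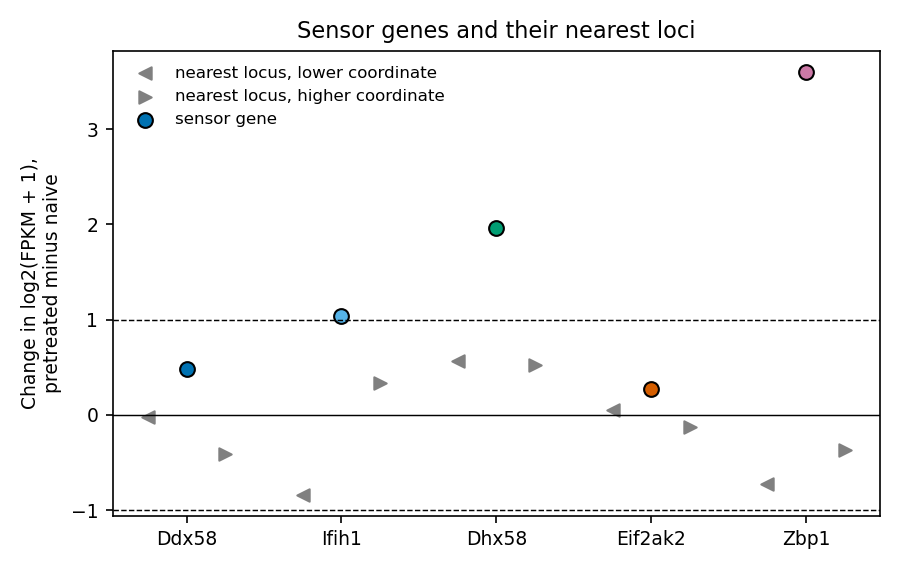
Change in log2(FPKM + 1), pretreated minus naive, for each sensor gene (circle) and the nearest compared locus with a transcript ID on each side (triangles); dashed lines mark 2-fold. All 10 neighbours lie between the dashed lines, from -0.84 to 0.56, and Zbp1, Dhx58 and Ifih1 lie above the upper line.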

How the data were processed

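The authors deposited 1 table in the layout of Cuffdiff that holds, per locus, FPKM values of the naive 1 h and pretreated 1 h libraries. It also holds their own log2 fold change with its p-value and q-value, of which the deposited q-values and calls are quoted, and a status. Per the submitters' processing notes, TopHat and Cufflinks 1.2.1 were used with the build mm9; the annotation, the filters and a possible rescaling between libraries are not given in the sources used here. Fragments that fit several transcripts may therefore have been divided in ways not known here. The sample name written in every row tied a column of values to its library. Starts were raised by 1: the resulting span equalled a RefSeq gene length on the same chromosome at 21.8% of loci with a transcript ID, and a span 1 bp longer did at 5.40%.

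Loci of status FAIL or HIDATA (24) did not enter, and a mean of at least 1 FPKM was required. Changes were computed as log2(FPKM + 1), a scale that understates the change of low loci, with numpy 2.4.6 and pandas 2.3.3, and counted past 2-fold. The function was tested on simulated data. The relative depth was estimated at 14 spans, where 1 pretreated read was worth 2.03 naive reads if the p-values mark reads as assumed. All 5 genes of the position rule are named, with the nearest compared locus on each side by position only. The members and lists were chosen with earlier results of these data known. The lists of other pathway genes and of cell type markers need symbols and were not analysed here. The 500 kb range and the classes of naive level were chosen after seeing the data. There were 8 alternatives, whose effect is given at the end.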

Additional observations from a re-analysis of the deposited data

How the results depend on the processing

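All 5 log2 changes stayed above 0 under each of the 8 alternatives, and each moved by less than 1.5 times in fold: Ddx58 lay between 0.48 and 0.64, Ifih1 between 1.04 and 1.2, Dhx58 between 1.96 and 2.12, Eif2ak2 between 0.27 and 0.43, and Zbp1 between 3.60 and 3.87. Filters and restrictions on loci cannot move the value of a single gene, and centring shifts all genes alike. The count of genes at least 2-fold higher was 3 under 7 alternatives, and at a 4-fold threshold it was 1 (Zbp1), with 0.968% of all loci higher and 1.4% lower. Dhx58 was 4.16-fold higher on the plain ratio but just under 4-fold on log2(FPKM + 1). With a pseudocount of 0.1, the shares of all loci past 2-fold were 4.55% on the higher and 11.5% on the lower side. Without a filter, 1.79% were at least 2-fold higher; among loci with a transcript ID, 4.24% were at least 2-fold lower. These shares moved by more than 1.5 times, each under a setting that changes the scale or the loci counted. Without the filter 17552 loci were counted, and with a transcript ID 9227, against 10228 in the main setting. No paired analysis was possible because there is a single library in every group, so leaving out a replicate was not possible either. Differences between cultures and an effect of pretreatment cannot be told apart in this design, and the unknown read totals give no counting interval.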
